A study of Rattus norvegicus with 26 samples.

Results

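The comparison described here was between the later and the earlier hours of the liver response to a 1/3 partial hepatectomy (1/3 PH), the removal of the left lateral lobe only. miRNAs were profiled on 26 rat liver microarrays, 1 array per rat, and 11 of them carried livers of rats after 1/3 PH. The late group held 6 arrays (3 rats at 24 hours and 3 at 36 hours) and the early group held 5 arrays (2 rats at 6 hours and 3 at 12 hours). A miRNA was a member if the scanner software had marked it as detected on each array of any of these 4 times, which left 127 of the 677 rat miRNAs on the array. No normal liver entered the comparison, so a difference below is between later and earlier operated livers and not from the unoperated state. All rats were male Sprague-Dawley, carried no genetic change, and had their right liver lobes harvested in the morning, whichever time had passed since surgery. The 12 arrays of rats after 2/3 partial hepatectomy (2/3 PH) at the same 4 times were used to test where the late to early difference depended on the size of the resection. All 26 arrays, normal livers included, also entered the choice of probes for scaling. In the study, 2/3 PH was the operation with robust DNA synthesis and 1/3 PH the one with little replication. The source labels gave 25 and 26 hours for 2 of the 24-hour livers and 37 and 38 hours for 2 of the 36-hour livers, while their titles gave 24 and 36 hours.

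A miRNA is a short RNA that guides the silencing machinery to messenger RNAs carrying a match to its seed, the bases 2 to 8 from its 5′ end, and miRNAs with the same seed share most of their targets. After a partial hepatectomy the remaining hepatocytes leave quiescence, and how many of them reach DNA synthesis depends on how much liver was lost. miRNAs of the miR-17/92 and miR-106b/25 clusters are transcribed with the cell cycle under Myc and E2F, miR-21 rises in regenerating liver, and the miR-29 family targets collagens and other matrix genes.

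The miRNAs that differed between late and early hours, and a set whose late to early difference depended on the resection, are shown as mature sequences from RefSeq (build GRCr8), 5′ to 3′, with the seed in capitals. miR-29c and miR-29a did not differ by the test used here and are shown as family members of miR-29b. The miR-29 family shares the seed of its 3 members and the miR-101 pair shares another, whereas the 3 miRNAs that were lower at late hours have different seeds:
miR-29b: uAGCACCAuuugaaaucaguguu
miR-29c: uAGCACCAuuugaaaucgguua
miR-29a: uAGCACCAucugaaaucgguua
miR-101a: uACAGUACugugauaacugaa
miR-101b: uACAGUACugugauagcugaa
miR-466b: uAUGUGUGuguguauguccaug
miR-500: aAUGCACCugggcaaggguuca
miR-652: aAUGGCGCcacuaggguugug

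miR-29b lies at chr4:60618342-60618364 on the minus strand beside miR-29a (chr4:60617968-60617989) and again at chr13:109098882-109098904 on the plus strand beside miR-29c (chr13:109099412-109099433). miR-101a is encoded at chr5:121081691-121081711 (minus strand) and miR-101b at chr1:236273982-236274002 (plus strand). miR-466b has 2 copies on chromosome 17, at chr17:72942513-72942534 and chr17:72945547-72945568, both on the minus strand. miR-500 (chrX:17930695-17930716) and miR-652 (chrX:111140129-111140149) lie on the plus strand of the X chromosome, far apart from each other. The set that depended on the resection holds miRNAs of the proliferation clusters, of which 4 are shown because they share the seed AAAGUGC and miR-18a because its seed differs from it:
miR-93: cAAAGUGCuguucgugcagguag
miR-17-5p: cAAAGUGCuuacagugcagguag
miR-106b: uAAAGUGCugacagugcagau
miR-20b-5p: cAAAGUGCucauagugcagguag
miR-18a: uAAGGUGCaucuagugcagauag

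miR-93 (chr12:22156894-22156916) and miR-106b (chr12:22157103-22157123) come from the miR-106b/25 cluster, miR-18a (chr15:98588000-98588022) from the miR-17/92 cluster and miR-20b-5p (chrX:137343239-137343261) from the cluster of miR-106a. The mature miR-17-5p sequence is annotated at chr15:98587861-98587883 and also within Mir106a at chrX:137343615-137343637, so its signal cannot be assigned to either locus.

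The arrays were alike in depth except for 1 of the 12-hour arrays, named m5m, whose summed signal was 18195.8 units against 65766.9 to 87568.5 on the other 10. It detected 91 miRNAs where each of the others detected at least 127, and its lowest usable signal, the floor, was 23.6 scaled units against 6.64 to 16.6, so every comparison is given with and without it. The 6-hour array m64 had 464 spots marked as non-uniform by the software, and m62, the other 6-hour array, also had more of them than the 0 to 13 on each of the other 9. miR-122, the miRNA that marks hepatocytes, made up 51.7% to 57.4% of the summed signal on all 11 arrays, and miR-1*, the other arm of a muscle miRNA, was the only tested member of 18 miRNAs of pancreas, muscle and nerve. The arrays lay on 4 slides, and only slides 1 and 5 held both early and late livers, in each case at 12 and 24 hours. All 36-hour arrays were on slide 2, which held no early array, and both 6-hour arrays were on slide 3 with the 12-hour array m2 and no late array. Between 6 or 36 hours and the opposite group, slide and time cannot be told apart. P-values measure the spread between rats of a time group, each measured once. In whole liver, fewer cells of a type and less RNA per cell cannot be told apart.

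miR-29b, miR-101a and miR-101b were up-regulated at 24 and 36 hours relative to 6 and 12 hours, by 1.46- to 1.67-fold, and miR-466b, miR-500 and miR-652 were down-regulated, by 1.75- to 4.36-fold. These were the 6 of 127 miRNAs (4.72%; 2.36% in each direction) with an adjusted p under 0.05 in limma with Benjamini-Hochberg adjustment. The 18 miRNAs with an unadjusted p under 0.05 made up 14.2% of those tested, 13 of them higher and 5 lower at late hours. The median log2 difference over all 127 was -0.02, with 61 miRNAs above 0 and 66 below. Without m5m, 7 miRNAs passed (5.51%), namely the same 6 and miR-511*. The adjusted p-values of the 6 depended on the 6-hour array m64. Without it none of the 127 passed, 13 had an unadjusted p under 0.05, and the adjusted p-values of the 6 ranged from 0.0607 to 0.107. The 6-hour group then held 1 array, which was assumed to vary like the other groups. Their log2 differences without m64 were 0.69 for miR-29b, 0.54 for miR-101a, 0.5 for miR-101b, -1.71 for miR-466b, -1.39 for miR-500 and -0.81 for miR-652. With both m5m and m64 left out, a setting chosen after seeing the data, 4 passed, and miR-101b (0.46, adjusted p = 0.0638) and miR-466b (-1.56, adjusted p = 0.0967) did not.

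**Figure D1:**
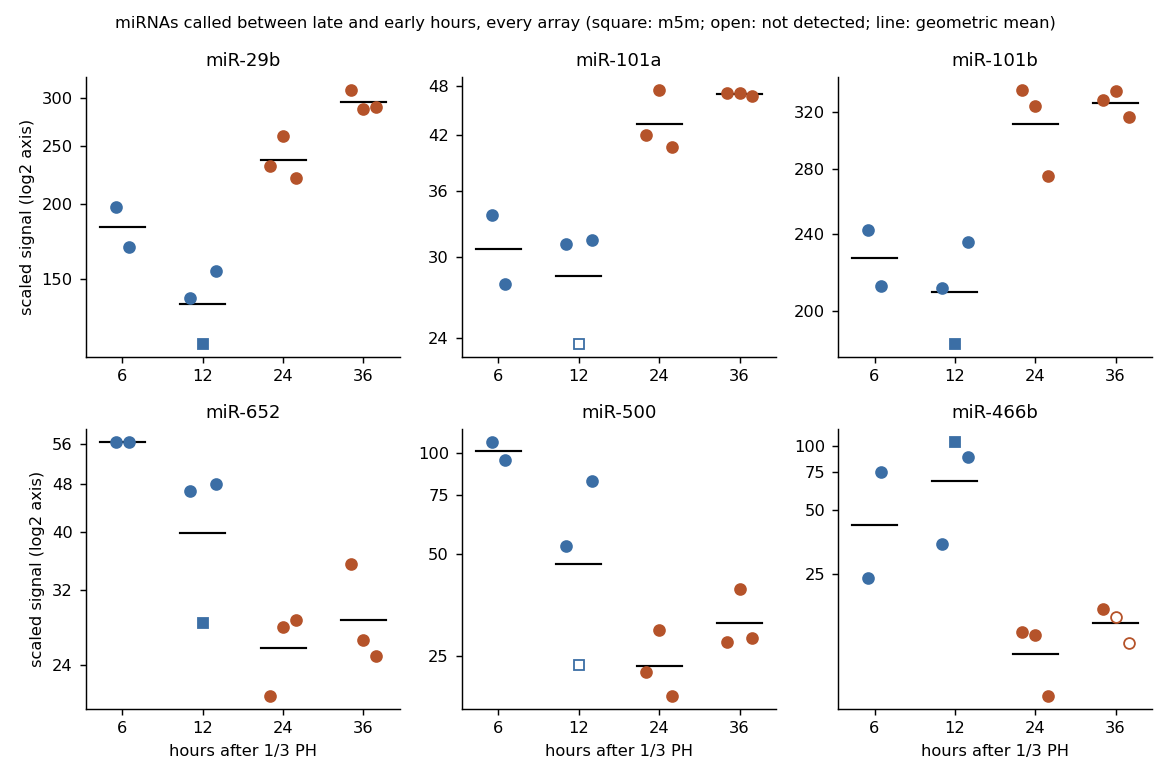
Scaled signal (log2 axis) of the 6 miRNAs that passed, against hours after 1/3 PH, with every array as a point, m5m as a square, undetected values as open symbols and the geometric mean of each time as a line. The late arrays of miR-29b, miR-101a and miR-101b all lie above the early ones, those of miR-466b all lie below, and those of miR-500 and miR-652 overlap the early arrays only at m5m.

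miR-29b, a repressor of collagen genes, had the smallest adjusted p of the comparison. Its scaled signal was 198 and 169.5 at 6 hours (m62 and m64) and 139.8, 117.1 and 155.04 at 12 hours (m2, m5m and m6). It was 231.7, 259.8 and 221.4 at 24 hours and 309.6, 287.3 and 289.6 at 36 hours. The lowest late array lay above the highest early one, and the lowest values were those of 12 hours. The late level was 1.67-fold the early level (log2 difference 0.74 ± 0.10 SE, adjusted p = 0.00581 in limma), and 0.69 with an adjusted p of 0.00224 without m5m. The sign was the same within slides 1 and 5, where 12 and 24 hours were measured side by side. The difference was 0.66 within slide 1 (m6 against m20 and m23) and 0.92 within slide 5 (only m5m against m24). The call was lost with normexp (0.33, adjusted p = 0.126), no scaling (1.11, adjusted p = 0.777), the 75th percentile over all probes (0.83, adjusted p = 0.251) and the deposited table (0.83, adjusted p = 0.0918).

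The other members of the miR-29 family did not pass. miR-29c, which differs from miR-29b outside the seed, had 279.6 and 227.9 at 6 hours, 187.4, 93.85 and 196.4 at 12 hours, 301.03, 307.2 and 224.3 at 24 hours, and 280.4, 366.6 and 344.9 at 36 hours. Early and late arrays overlapped, since the 24-hour array m24 (224.3) lay below both 6-hour arrays. Its log2 difference was 0.62 ± 0.21 SE (adjusted p = 0.186 in limma) and 0.45 without m5m. miR-29a, the family member transcribed together with miR-29b on chromosome 4, had a log2 difference of 0.35 (adjusted p = 0.509) and 0.14 without m5m, whose signal of 388.9 stood below the 852.5 to 1247 of the other 10 arrays. The median of the 3 was 0.62 with m5m and 0.45 without it, beside -0.02 and -0.05 over all miRNAs tested.

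miR-101a and miR-101b, which repress the chromatin enzyme EZH2 and are lost in many liver tumours, are 21 bases long and have the same seed. miR-101b had 242.1 and 212.3 at 6 hours, 211.3, 185.2 and 235.6 at 12 hours, 337.2, 324.8 and 275 at 24 hours, and 328.9, 336.2 and 316 at 36 hours. All late arrays lay above all early ones, with m24 lowest among the late. The log2 difference was 0.55 ± 0.10 SE (adjusted p = 0.0123 in limma), and 0.5 without m5m (adjusted p = 0.0103). It was 0.49 within slide 1 and 0.57 within slide 5, whose early array is m5m. The call of miR-101b was lost with normexp (0.3, adjusted p = 0.153), no scaling (0.91, adjusted p = 0.777), the 75th percentile over all probes (0.64, adjusted p = 0.461) and the deposited table (0.63, adjusted p = 0.0918).

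miR-101a was dimmer, with 33.69 and 27.85 at 6 hours, 31.08 and 31.41 on m2 and m6 at 12 hours, and no detection on m5m, where it was set to the floor of 23.57. It had 42.01, 47.55 and 40.58 at 24 hours and 47.09, 47.12 and 46.71 at 36 hours, so that the late values again lay above all early ones. The log2 difference was 0.61 ± 0.11 SE (adjusted p = 0.0123), 0.54 without m5m (adjusted p = 0.00507), 0.51 within slide 1, and 0.78 within slide 5, where the early array is m5m. On m64, 4 of the 20 miR-101a spots were marked, with signals of 532.4 to 2201 against 3.04 to 25.1 on the unmarked spots, and marked spots were left out here. The software's own total signal, which gave 150.9 scaled units on m64 and 20.6 to 31.6 on the other 10 arrays, turned the sign of miR-101a to -0.25 (adjusted p = 0.736), and normexp background correction turned it to -0.12 (adjusted p = 0.563). The call was lost without a change of sign with no scaling (0.98, adjusted p = 0.777), the 75th percentile over all probes (0.7, adjusted p = 0.461), quantile normalization (0.91, adjusted p = 0.0828), the brightest probe (0.47, adjusted p = 0.061) and the deposited table (1.23, adjusted p = 0.585).

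Of the other hepatocyte miRNAs on the list, 5 were tested, and none passed. miR-192, the miRNA of the liver and gut epithelium induced by p53, had 1233 and 1332 at 6 hours, 1095, 1017 and 1117 at 12 hours, 1389, 1407 and 1290 at 24 hours, and 1328, 1475 and 1397 at 36 hours. Its log2 difference was 0.23 (adjusted p = 0.186 in limma), and only the 6-hour array m64 reached into the late range. miR-122 itself had 36334 to 42399 on the early arrays and 30620 to 41648 on the late ones, with a log2 difference of -0.07 (adjusted p = 0.741), and miR-122*, its other arm, had -0.08. The median over the 7 tested members of the hepatocyte list, which includes the miR-101 pair, was 0.17 with m5m and 0.12 without it. Their summed scaled signal ran from 40880 to 46500 on the early arrays and from 34800 to 47240 on the late arrays.

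miR-466b, a rodent miRNA whose sequence is a run of GU repeats, showed the largest difference. It had 23.88 and 75.48 at 6 hours and 34.57, 104.2 and 88.39 at 12 hours. At 24 hours it had 13.23, 12.9 and 6.64, and at 36 hours 17.11, 15.63 and 11.76. Every late array lay below every early one, but the early arrays spread by over 4 times, and the lowest of them, m62, was nearest to the late range. On 4 of the 6 late arrays (m20, m24, m46 and m47) the value was the floor of the array, and on m46 and m47 it was not detected, so the late level is in part a limit of detection. The fitted late level was 4.36-fold lower (log2 difference -2.12 ± 0.39 SE, adjusted p = 0.0123 in limma), and -1.97 without m5m (adjusted p = 0.0296). It was -2.76 within slide 1 and -3.97 within slide 5, whose early array is m5m. The size depended on the processing, with -0.71 under normexp (adjusted p = 0.0357), and the call of miR-466b was lost in the deposited table (-4.81, adjusted p = 0.0918) and with the software's total signal (-1.55, adjusted p = 0.127). The early array highest for miR-466b was m5m, whose summed signal was the lowest.

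miR-500, which lies in an X-linked cluster with miR-532 and miR-362, had 107.7 and 95.4 at 6 hours and 52.8 and 82.17 on m2 and m6 at 12 hours. On m5m it was not detected, with a floor of 23.57. At 24 hours it had 22.38, 29.89 and 19.02, and at 36 hours 27.5, 39.41 and 28.35. All 4 early arrays that detected it lay above all 6 late ones, and only the floor of m5m fell among the late values. The log2 difference was -1.35 ± 0.30 SE (adjusted p = 0.0274 in limma), or 2.55-fold lower, and -1.6 without m5m (adjusted p = 0.00224). It was -1.67 within slide 1 and -0.31 within slide 5, whose early array is m5m. In the deposited table the difference of miR-500 was -0.02 (adjusted p = 1), and the call was also lost with no scaling (-0.98, adjusted p = 0.777), quantile normalization (-1.08, adjusted p = 0.239), a floor of 1 unit (-1.28, adjusted p = 0.0937) and pooled times (-1.24, adjusted p = 0.0821). With normexp it was -0.67 (adjusted p = 0.00544). The neighbours miR-532-5p and miR-362* on the same stretch of the X chromosome, named here after their values were seen, had log2 differences of 0.06 and -0.13 and did not pass. miR-362* stood at the floor on every early array and was detected on only 1 of them, so its difference is in part that of the floors.

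miR-652, an X-linked miRNA of its own locus, had 56.37 and 56.4 at 6 hours and 46.75, 28.17 and 48 at 12 hours. It had 21.33, 27.81 and 28.53 at 24 hours and 35.29, 26.4 and 24.83 at 36 hours. The value of m5m (28.17) lay within the late range, and the other 4 early arrays lay above all late ones. The log2 difference was -0.81 ± 0.17 SE (adjusted p = 0.0274 in limma), or 1.75-fold lower, and -0.93 without m5m (adjusted p = 0.00405). Within slide 1 it was -0.98, and within slide 5, whose early array is m5m, it was 0.02. miR-652*, the other arm of the same hairpin, had a log2 difference of 0.02 and did not pass. The call of miR-652 was lost with normexp (-0.47, adjusted p = 0.126), no scaling (-0.44, adjusted p = 0.777), the 75th percentile over all probes (-0.72, adjusted p = 0.461), the brightest probe (-0.42, adjusted p = 0.11) and the deposited table (-0.83, adjusted p = 0.0918).

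miR-500 and miR-652 also depended on single arrays other than m64. miR-500 missed the threshold when m62, m64, m2, m20, m24, m45B or m47 was left out (adjusted p = 0.0691 to 0.107), and miR-652 missed it without m62, m64, m2, m6, m20, m46 or m47 (adjusted p = 0.0616 to 0.107), each keeping its sign. With the slide as a random block, their adjusted p-values were 0.0782 and 0.192, and the other 4 miRNAs passed. With the slide as a fixed block and pooled times they were 0.192 for miR-500 (-1.09) and 0.248 for miR-652 (-0.55).

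miR-511*, which passed only without m5m, had a log2 difference of -0.33 ± 0.07 SE there (adjusted p = 0.0316 in limma). With m5m, where it was set to the floor, the difference was -0.24 with an adjusted p of 0.489.

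**Figure D2:**
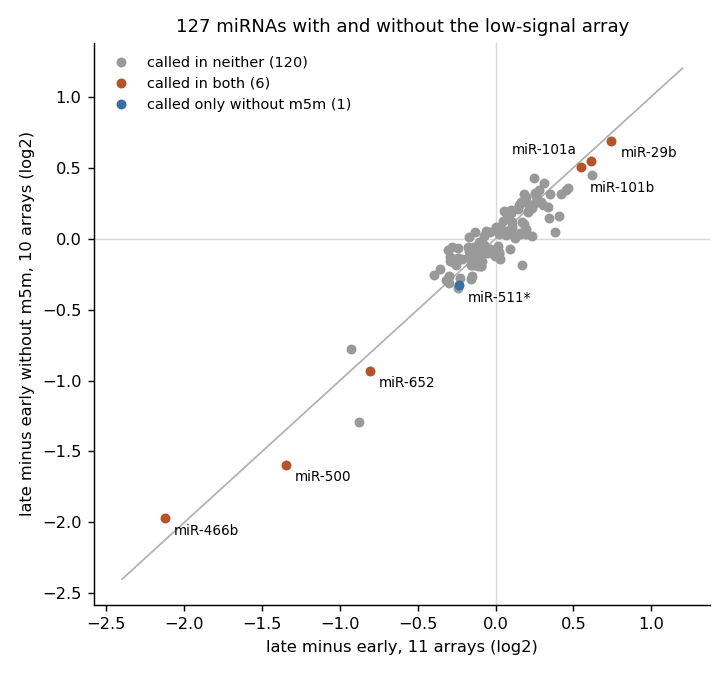
Late minus early difference (log2) of each of the 127 miRNAs over all 11 arrays (horizontal axis) and over the 10 arrays without m5m (vertical axis), coloured by whether it passed. Of the 127, 6 passed both ways, miR-511* passed only without m5m and 120 passed neither way.

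The 4 named miRNAs that were filled in below the threshold were miR-29c (above), miR-3559-5p, miR-30e* and let-7e. miR-3559-5p had a log2 difference of 0.47 (adjusted p = 0.186 in limma), and like miR-101a its sign turned to -0.4 with the software's total signal and to -0.16 with normexp. On m64, 4 of its 20 spots were marked, with signals of 357 to 1464. miR-30e*, the minor arm of a miR-30 hairpin, had a log2 difference of -0.39 (adjusted p = 0.321), and its highest value, 32.28, was that of m5m against 13.65 to 19.62 on the other 10 arrays. let-7e had 129.8 and 149.5 at 6 hours, 146.3, 161.6 and 140.1 at 12 hours, 107.3, 122.1 and 125.1 at 24 hours, and 118.1, 118.9 and 103.3 at 36 hours. Every late array of let-7e lay below every early one, while its log2 difference of -0.32 gave an adjusted p of 0.126.

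The groups did not overlap for 7 of the 127 miRNAs (5.51%). Late arrays lay above early ones for miR-29b, miR-101a, miR-101b and miR-30a, and below them for miR-466b, let-7e and let-7f. Without m5m this held for 15 miRNAs (11.8%), 6 with late above (4.72%) and 9 with late below (7.09%). By the fold limits that the study applied to its comparisons, 23 miRNAs (18.1%) had a late level below 0.8-fold or above 1.2-fold of the early one, 16 of them higher and 7 lower. Without m5m there were 22 (17.3%), but the share rose to 34.6% without m62 and to 28.3% without m6. Only 2 miRNAs (1.57%), miR-466b and miR-500, were under 0.5-fold or over 2-fold.

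The let-7 family, whose members restrain proliferation and mark differentiated cells, had 8 tested members. None passed, and all 8 had a negative difference, a sign that depended on the scaling, since with no scaling all 8 were positive. The median was -0.14 (-0.16 without m5m) beside -0.02 over all tested, and with no scaling it was 0.22 beside 0.34. Of the miR-30 family, abundant in epithelia, 7 members were tested and none passed. miR-30e had a log2 difference of 0.35 (adjusted p = 0.0869) and miR-30a had 0.3 (adjusted p = 0.197), whereas the minor arm miR-30e* had -0.39. The miR-15/16 family, which represses cyclins, had a median of -0.09 over 5 members, the miR-23/27/24 family 0.06 over 5, the miR-10, miR-99, miR-100 and miR-125 miRNAs -0.01 over 6, and the miR-26 pair -0.04. The pair of miR-103 and miR-107 had a median of 0.17 and the miR-378 arms -0.25, and the single tested members of the miR-181 family and of the miR-130 and miR-301 families had -0.17 and -0.12. None of these passed.

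Markers of other cell types did not pass in any list. Of the leukocyte miRNAs, 5 of 10 were tested, with a median of -0.04 and a summed signal of 234.2 to 285.6 on early and 225.8 to 307.9 on late arrays. The 5 tested stellate and endothelial miRNAs all had positive differences here but only 2 of 5 with normexp, with a median of 0.16 and sums of 630.5 to 937.2 early and 811.1 to 1040 late. The biliary and epithelial list had 3 tested members with a median of 0.06 and sums of 50.79 to 139.1 and 48.34 to 109.2. miR-451, the red cell miRNA, had 61.39 to 192.8 on early and 59.56 to 297.7 on late arrays (log2 difference 0.21, adjusted p = 0.733), with the highest value on the 24-hour array m24. The part of cell composition in the differences above was not tested.

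**Figure D3:**
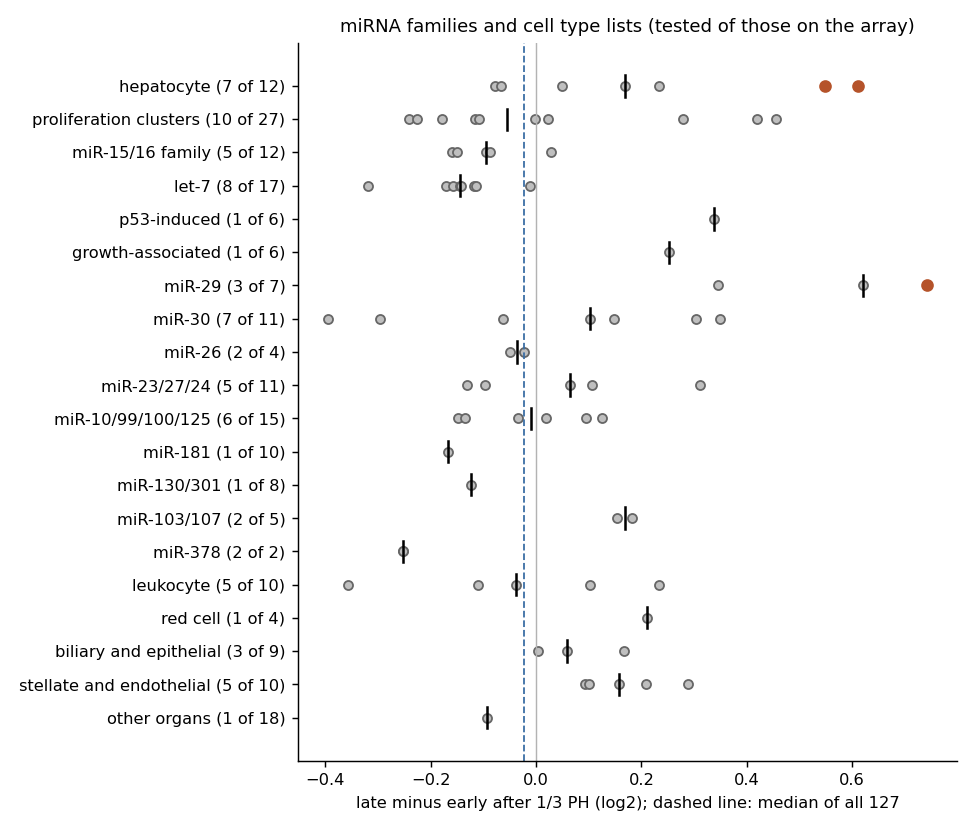
Late minus early difference (log2, horizontal axis) of each tested member of the miRNA families and cell type lists, with the number tested of those on the array beside each name, the list median as a black tick, the median of all 127 as a dashed line and miRNAs that passed as filled points. The members that passed belong to the miR-29 family and to the hepatocyte list, and all let-7 points lie below 0, as they do not with no scaling.

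The difference between late and early hours was then divided into steps between neighbouring times. From 12 to 24 hours, miR-29b rose by 0.80 on the log2 scale (adjusted p = 0.0311 in limma) and miR-466b fell by 2.71 (adjusted p = 0.0314), and these were the only 2 of 127 that passed (1.57%). Without m5m, miR-29b (0.69, adjusted p = 0.0325) and miR-500 (-1.5, adjusted p = 0.0325) passed at this step, and miR-466b did not (-2.41, adjusted p = 0.0799). Leaving out m2 or m6 left 1 call at this step, and leaving out any of the 6 late arrays left 0. From 6 to 12 hours 0 miRNAs passed in limma, with 14 at an unadjusted p under 0.05 (11%), although 2 passed without m45B and 1 without m47. From 24 to 36 hours 0 passed, with 5 at an unadjusted p under 0.05 (3.94%). The geometric means of miR-101a were 30.63, 28.44, 43.28 and 46.97 at the 4 times, and those of miR-652 were 56.39, 39.84, 25.67 and 28.5. For miR-500 they were 101.4, 46.76, 23.35 and 31.32, where m5m enters the 12-hour mean at its floor. For miR-466b they were 42.45, 68.28, 10.43 and 14.65.

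The same late to early comparison after 2/3 PH was used to see which differences depended on the resection. The 6 miRNAs that passed after 1/3 PH had the same sign after 2/3 PH, and the difference between the operations did not pass for any of them (adjusted p = 0.369 to 0.948 in limma). The log2 differences after 2/3 PH were 1.07 for miR-29b, 0.49 for miR-101a, 0.74 for miR-101b, -1.65 for miR-466b, -1.67 for miR-500 and -0.85 for miR-652, and each passed there. After 2/3 PH, 49 of the 127 miRNAs passed (38.6%), 27 higher (21.3%) and 22 lower (17.3%). The early arrays of 2/3 PH were on slides 1, 3 and 5 and the late ones on slides 2, 4 and 6, so that after 2/3 PH slide and time cannot be told apart, which also limits the test between the operations. Across the 127 miRNAs the differences after the operations had a Pearson's r of 0.64 and a Spearman's rho of 0.52, given as a description since miRNAs are not independent and the 24-hour livers of 2/3 PH shared a slide with the 36-hour livers of 1/3 PH.

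**Figure D4:**
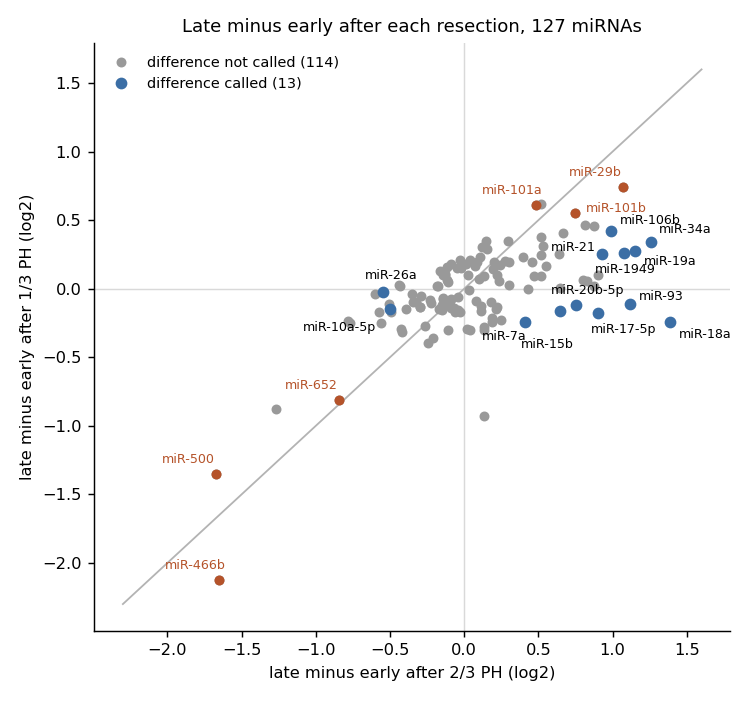
Late minus early difference (log2) after 2/3 PH (horizontal axis) and after 1/3 PH (vertical axis) of the 127 miRNAs, with the 6 that passed after 1/3 PH in red and the 13 whose difference depended on the operation in blue, and equal differences along the grey diagonal. Of the blue points, 11 lie to the right, with positive differences after 2/3 PH, and miR-26a and miR-10a-5p lie to the left.

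The late to early difference depended on the resection for 13 of 127 miRNAs (10.2%), 11 with a smaller or more negative difference after 1/3 PH (8.66%) and 2 with a larger one (1.57%). None of the 13 passed between late and early hours after 1/3 PH itself. Without m5m, 17 passed (13.4%), 12 of them among the 13, and with m5m and m64 both left out, 14. Without m64 alone only 6 passed, and with no scaling or with normexp none of the 127 did, with 27 (21.3%) at an unadjusted p under 0.05 in the comparison as described.

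The miR-17/92 and miR-106b/25 clusters and the related cluster of miR-106a promote entry into the cell cycle. Of their 10 tested members, 6 were among the 13 that passed, and all 10 were among the 17 that passed without m5m, with differences between the operations of -0.53 to -1.45 on the log2 scale. Their median late to early difference was -0.06 after 1/3 PH and 0.89 after 2/3 PH. The value after 1/3 PH ranged from -0.22 with normexp to 0.53 in the deposited table. miR-93 had the smallest adjusted p. After 1/3 PH it had 21.22 and 25.57 at 6 hours, 23.4, 23.57 (the floor of m5m) and 25.92 at 12 hours, 25.81, 22.33 and 20.75 at 24 hours, and 24.14, 20.1 and 19.85 at 36 hours, and the times overlapped. Its geometric means after 2/3 PH were 19.74, 21.32, 41.81 and 47.45 at the same hours. The difference between the operations was -1.23 ± 0.13 SE (adjusted p = 4.49e-06 in limma), with -0.11 after 1/3 PH and 1.12 after 2/3 PH. 

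miR-106b, encoded beside miR-93, had 56.34 and 48.99 at 6 hours, 49, 32.48 and 53.26 at 12 hours, 70.08, 71.87 and 55.91 at 24 hours, and 63.78, 65.02 and 60.38 at 36 hours. Its early and late arrays overlapped only at m24 and m62. The log2 difference after 1/3 PH was 0.42 (adjusted p = 0.186, and -0.1 with normexp), against 0.99 after 2/3 PH, and the difference between the operations was -0.57 (adjusted p = 0.0309 in limma). miR-25, of the same cluster, had a difference between the operations of -0.43 (adjusted p = 0.0927) and passed only without m5m. miR-19b, of the miR-17/92 cluster, had a log2 difference of 0.46 after 1/3 PH (adjusted p = 0.197), the largest of the cluster miRNAs, and 0.88 after 2/3 PH.

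miR-18a (-1.63, adjusted p = 0.0103) and miR-17-5p (-1.08, adjusted p = 0.013) had large differences between the operations in limma, but both were near the floor. The early means of miR-18a after 2/3 PH, 11.63 at 6 hours and 10.49 at 12 hours, were those of the array floors. Its rise of 1.39 after 2/3 PH therefore started at the floor. For miR-17-5p these means were 14.53 and 13.87, on arrays with floors of 7.53 to 19.6. After 1/3 PH, miR-18a was at the floor on 5 of 5 early and 3 of 6 late arrays and miR-17-5p on 4 early and 3 late arrays. Their values after 1/3 PH were thus in part those of the floor. With a floor of 1 unit, the difference of miR-18a after 1/3 PH was 1.64 (adjusted p = 0.028) and that of miR-17-5p was 0.28, where they were -0.24 and -0.18 with the floor of each array. miR-20b-5p, above the floor on all 11 arrays, had a difference between the operations of -0.87 (adjusted p = 0.013). miR-19a, at the floor on m64 and m5m, had -0.87 (adjusted p = 0.0131).

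Beyond the clusters, miR-21, the growth-associated miRNA of regenerating liver, had 4850 and 5301 at 6 hours, 3836, 5413 and 4249 at 12 hours, 5975, 5132 and 5426 at 24 hours, and 6179, 5455 and 5840 at 36 hours. The early and late arrays overlapped, because the late array m23 (5132) lay below the early m5m and m64. The log2 difference was 0.25 after 1/3 PH (adjusted p = 0.345) and 0.93 after 2/3 PH, and the operations differed by -0.67 (adjusted p = 0.0266 in limma). The related growth miRNAs miR-221 and miR-222 were not among those tested. miR-34a, a direct target of p53, had 0.34 after 1/3 PH (adjusted p = 0.495, and -0.05 with normexp) and 1.26 after 2/3 PH, a difference of -0.92 (adjusted p = 0.0154). miR-15b, a repressor of cyclins, had -0.16 after 1/3 PH and differed by -0.81 (adjusted p = 0.0015). miR-7a differed by -0.65 (adjusted p = 0.031) and miR-1949 by -0.82 (adjusted p = 0.0474), and miR-1949 did not pass without m5m (adjusted p = 0.0604). After 1/3 PH, miR-1949 was at the floor on m64, m5m and m46, and miR-7a on m5m.

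The 2 miRNAs with a higher difference after 1/3 PH fell at late hours after 2/3 PH. miR-26a, which represses cyclins and slows hepatocyte growth, had geometric means of 569.6, 555.5, 546.8 and 561.4 at the 4 times of 1/3 PH, and of 599.3, 590.3, 432 and 384.5 after 2/3 PH. Its difference was -0.02 after 1/3 PH and -0.54 after 2/3 PH, and the operations differed by 0.52 ± 0.12 SE (adjusted p = 0.0103 in limma). miR-10a-5p, encoded in a Hox gene cluster, had -0.15 and -0.5, a difference between the operations of 0.35 (adjusted p = 0.031).

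**Figure D5:**
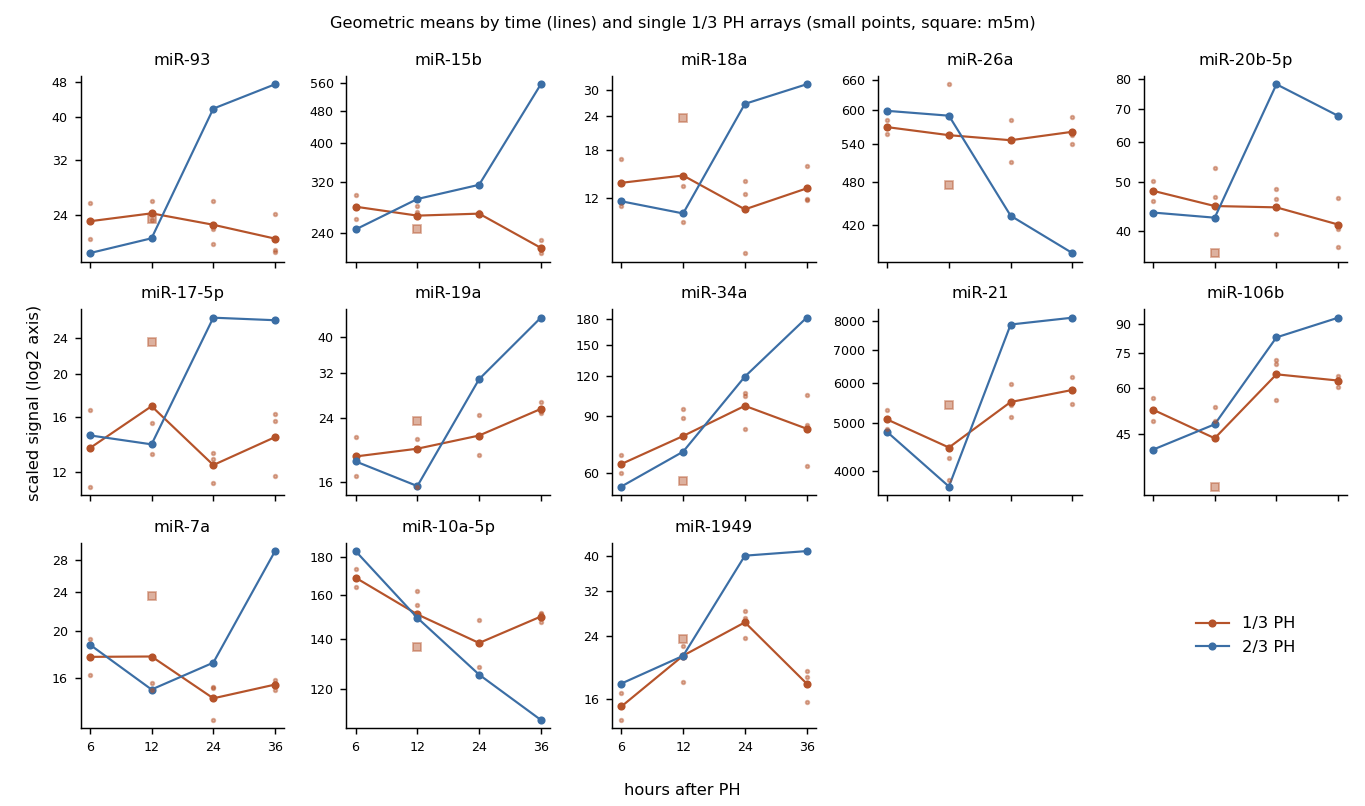
Geometric mean scaled signal (log2 axis) of the 13 miRNAs whose late to early difference depended on the operation, against hours after surgery, with a line for 1/3 PH and a line for 2/3 PH, and the single 1/3 PH arrays as small points (m5m as a square). The lines are close at 6 and 12 hours for miR-93 (23.3 and 24.3 after 1/3 PH, 19.7 and 21.3 after 2/3 PH) and apart at 24 and 36 hours (22.9 and 21.3 against 41.8 and 47.5).

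The largest shares of the summed signal, which depend on the brightness of each probe as well as on the amount of RNA, belonged to miR-122 (mean 55.4%), miR-21 (7.74%), miR-22 (3.78%), let-7a (3.2%) and let-7f (2.57%). Their late to early log2 differences after 1/3 PH were -0.07, 0.25, 0.05, -0.16 and -0.14, and none passed. Across the miRNAs with a RefSeq sequence (81.1% of those tested), the differences had a Pearson's r of -0.19 and a Spearman's rho of -0.21 with GC content, as a description. The median GC content was 34.8% for the 3 miRNAs that rose and 54.5% for the 3 that fell, against 45.5% for all with a sequence, and its part in the differences was not tested.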

How the data were processed

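Total RNA from 26 rat livers was hybridised to single-colour Agilent rat miRNA arrays with 13540 miRNA spots, 1644 probes and 677 miRNAs. The deposited scanner files (Feature Extraction 10.7.3.1) hold intensity values, background-subtracted by the authors' software and not scaled between arrays. The deposited log2 table, which the authors normalized between arrays in a way not given in the sources used here, served as an alternative. A spot that the software marked as non-uniform, or as an outlier among its replicate spots, did not count, except for probes with no other spot. Probe means were summed per miRNA, divided by the array's 75th percentile over 109 probes well above background on all 26 arrays, brought to a common level (218.42), raised to the lowest signal well above background and put on the log2 scale. The precision is limited by 11 arrays.

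limma 3.58.1 (R 4.3.3) fitted 4 time means and contrasted the mean of 24 and 36 hours with that of 6 and 12 hours, two-sided, with Benjamini-Hochberg adjustment over 127 miRNAs and a threshold of 0.05. Levels are geometric means with equal weight per time. A fit of 8 means over the 23 operated arrays tested the operations against each other and gave the late to early differences after 2/3 PH. Tested on simulated data, the late to early fit recovered 85% of 30 miRNAs changed by 1 on the log2 scale among 127, with 3.2% false calls. Fewer or smaller changes, such as those of miR-29b, miR-101a, miR-101b and miR-652, were not simulated. Named miRNAs were those that passed, filled to 5 in each direction by log2 difference at an unadjusted p under 0.05, and up to 3 each way for steps and operations. The 5 with the largest signal shares, members of the growth, cluster, p53-induced and red cell families, and both arms of miR-122 were added. Other list members, such as miR-192, were named when describing their list. Members and lists were chosen with earlier results of these data known. Alternatives were other scalings, background corrections, probe summaries, filters, floors, slide and scan-day blocks, array weights and leaving out each array. Tables were read with pandas 2.3.3 and figures drawn with matplotlib 3.10.9.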

Additional observations from a re-analysis of the deposited data

Results flagged for a closer look

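Chance alone sets apart the extreme sample in about 1 in 20 groups of this size. The summed signal of the early arrays had such a sample, m5m, at 18195.8 units. The same array was apart from the other early arrays for miR-652 (4.82 on the log2 scale) and miR-30e* (5.01), and the 24-hour array m24 was apart from the other late arrays for miR-101b (8.1). The late to early difference depended on the operation, by the limma test of the difference between 1/3 PH and 2/3 PH, for miR-93 (-1.23 on the log2 scale), miR-15b (-0.81), miR-18a (-1.63), miR-26a (0.52), miR-20b-5p (-0.87), miR-17-5p (-1.08), miR-19a (-0.87), miR-34a (-0.92), miR-21 (-0.67), miR-106b (-0.57), miR-7a (-0.65), miR-10a-5p (0.35) and miR-1949 (-0.82).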

How the results depend on the processing

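The 6 miRNAs that passed between late and early hours became 1 with no scaling, 2 with the 75th percentile over all probes, 3 with normexp, 3 among miRNAs detected on every array, 0 with the deposited table (where 52.8% of miRNAs were past the fold limits), 14 with all 26 arrays in the fit, 15 with scan day as a block, 13 on the first scan day only, 19 with array weights and 18 at an unadjusted p; leaving out 1 array gave 0 (m64) to 7 (m5m). From 6 to 12 hours 0% passed, against 98.4% with the 75th percentile over all probes and 11% unadjusted, and 0% to 1.57% without 1 array. From 12 to 24 hours the 1.57% became 0% with no scaling, the deposited table, detection on at least 1 array, the first scan day, or m5m and m64 both left out (added after seeing the data), 0.787% with a floor of 1 unit, 1.19% with detection on every array, 78% with the 75th percentile over all probes, 55.9% with normexp, 4.72% with 26 arrays, 3.15% with slide as a random block or a variance trend, 5.51% with scan day as a block, 8.66% with array weights, 13.4% unadjusted, and 0% to 1.57% without 1 array. From 24 to 36 hours 0% became 3.94% unadjusted and was 0% without any 1 array. The share past the fold limits (18.1%) was 64.6% with no scaling, 28.3% with the 75th percentile over all probes, 25.2% with quantile normalization, 22.8% with the brightest probe or pooled times, 31.5% with a floor of 1 unit, 1.57% with limits of 0.5 and 2, and 17.3% to 34.6% without 1 array. The 13 differences between operations became 0 with no scaling or normexp, 1 with the 75th percentile over all probes, 8 with the software's total signal or detection on at least 1 array, 5 with the deposited table, 20 with array weights, 27 unadjusted, and 6 (m64) to 18 without 1 array. The median log2 difference of all miRNAs was 0.34 with no scaling, 0.24 in the deposited table, -0.23 with normexp and -0.12 with the total signal.

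For 25 of the named miRNAs, 439 of 542 values under an alternative were scored as keeping sign and side of the threshold. Of the rest, 31 lost and 29 gained a call, and 43 turned sign, in 15 miRNAs. miR-25, at -0.002 in the main fit, had all 22 values scored as unchanged, although they ran from -0.2 to 0.36. It is therefore absent from the turned values below. miR-26a, miR-10a-5p, miR-22, let-7a and let-7f were not among these 25. With no scaling the turned values were let-7e 0.05, miR-122 0.3, miR-122* 0.29, miR-17-5p 0.19, miR-18a 0.12, miR-20b-5p 0.25, miR-92a 0.14 and miR-93 0.26; with the 75th percentile over all probes miR-122 0.02 and miR-122* 0.01; with quantile normalization miR-17-5p 0.12, miR-18a 0.08 and miR-20a -0.09. With normexp they were miR-101a -0.12, miR-3559-5p -0.16, miR-122 0.07, miR-19a -0.23, miR-20a -0.11, miR-106b -0.1, miR-34a -0.05 and miR-451 -0.08, and with the total signal miR-101a -0.25, miR-3559-5p -0.4 and miR-19a -0.04. In the deposited table they were miR-122 0.21, miR-17-5p 0.97, miR-18a 3.46, miR-20b-5p 0.12 and miR-93 1.05, and with a floor of 1 unit miR-17-5p 0.28, miR-18a 1.64 and miR-93 0.03. Slide as a fixed block turned miR-19a (-0.07), the first scan day miR-18a (0.07) and miR-451 (-0.01), and array weights miR-451 (-0.03). Refiltering without m5m turned miR-122* (0.02) and miR-20a (-0.11), and leaving out m5m and m64 turned miR-122* (0.06), miR-17-5p (0.08), miR-18a (0.08), miR-20a (-0.14) and miR-451 (-0.05). Without 1 array the ranges were -0.13 to 0.02 for miR-122*, -0.11 to 0.14 for miR-20a, -0.12 to 0.06 for miR-25 and -0.03 to 0.46 for miR-451. The causes were not tested. No paired analysis was possible because each rat gave 1 array and replicate numbers follow accession order. Arrays near the floor limit miR-466b, miR-18a and miR-17-5p, and also miR-1949 (m64, m5m and m46) and miR-19a (m64 and m5m). Among the others, miR-101a, miR-500, miR-3559-5p, miR-93 and miR-7a were at the floor on m5m.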
